A study of Mus musculus with 12 samples.

Results

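The proteasome is the barrel-shaped protease that degrades proteins tagged with ubiquitin. Its 20S core stacks rings of alpha subunits (Psma genes), which gate the channel, on rings of beta subunits (Psmb genes), some of which cut the substrate. A 19S regulatory particle caps the core: its Psmc subunits are ATPases that unfold the substrate, and its Psmd subunits bind, deubiquitinate or position it. The Psme genes encode other activators that open the core, and the Psmg genes encode chaperones that assemble it. Growing oocytes store large amounts of protein and RNA, and proteasomes degrade stored proteins at maturation and after fertilisation.

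The genes described here are all probes on a mouse Illumina bead array whose symbol begins with Psm, a letter from a to g and a number, and which were detected (detection p under 0.05) on at least 3 of 12 arrays. The symbol rule matched 86 probes of 49 genes, and 71 probes of 43 genes passed the detection filter, out of 45281 probes on the array and 22511 detected. Of the 71 probes, 65 were detected on all 12 arrays. The arrays measured total RNA of whole ovaries from FVB/N mice at 14 dpn (days of age as the labels write it), with 3 arrays in each of 4 groups. Without a transgene (NoTg), 1 group was heterozygous for the Foxo3 null allele (NoTg Foxo3+/-) and 1 lacked Foxo3 (NoTg Foxo3-/-). The other pair of groups carried the transgene (Tg), which by the study's title is a constitutively active Foxo3 in oocytes, in the same genotypes (Tg Foxo3+/- and Tg Foxo3-/-). Every group therefore carried at least 1 null allele, and no wild-type ovary was measured. The promoter that drives the transgene and whether each array held 1 animal are not stated in the labels. The p-values therefore rest on the spread among the arrays of a group, and this may be technical. Foxo3 is the forkhead transcription factor that holds resting oocytes dormant, and ovaries that lack it activate their follicles early.

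Whole ovary RNA mixes oocytes, granulosa cells and stroma, so fewer cells of a type and less RNA per cell cannot be told apart. Of the marker lists, 11 of 11 oocyte, 8 of 8 measured granulosa and 6 of 6 theca and stroma markers were detected. Of 3 fat markers on the array, Plin1 was detected, and Adipoq and Fabp4 were not. The averaged transgene difference of Plin1 was 0.44, which limma did not call. The only Foxo3 probe that passed the filter was 0.35 (log2) higher in null than in heterozygous ovaries on average, with an adjusted p of 0.0816 from limma. Its averaged transgene difference was -0.11 (adjusted p = 0.749, limma). The labels do not say where that probe lies relative to the deleted part, so it does not check the genotype labels. The array background was 76.3 to 81.2 intensity units on the 6 NoTg arrays and 65.4 to 74.2 on the 6 Tg arrays, with no overlap, so background and transgene cannot be told apart. Between 20072 and 22015 probes were detected per array. The precision of each value is limited by 3 arrays a group.

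To show what lies upstream of some of these genes, 150 bases before the start of transcription are printed for 4 of them, from RefSeq's promoter table (GRCm38.p6), on the gene's own strand and ending at the base before the start. Psmb5 and Psmb6 are shown because they encode catalytic subunits and hold the letters TGACNNNGC, the core of the antioxidant response element to which the factors Nrf1 (Nfe2l1) and Nrf2 (Nfe2l2) bind. Psmc2 and Psmg3 are shown because a dim probe of Psmc2 was called for the transgene, though its bright probe was not, and the Psmg3 probe was called for Foxo3 genotype. Capitals mark TGACNNNGC in Psmb5 and Psmb6 and CCAAT in Psmc2, while Psmg3 holds none of the motifs searched.
Psmb5, chr14:54617996-54618145, minus strand: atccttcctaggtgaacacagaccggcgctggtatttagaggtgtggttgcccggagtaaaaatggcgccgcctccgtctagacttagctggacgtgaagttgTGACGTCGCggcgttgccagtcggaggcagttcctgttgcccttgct
Psmb6, chr11:70525207-70525356, plus strand: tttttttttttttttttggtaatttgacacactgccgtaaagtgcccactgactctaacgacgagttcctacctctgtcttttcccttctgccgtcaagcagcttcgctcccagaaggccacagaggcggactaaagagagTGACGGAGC
Psmc2, chr5:21785125-21785274, plus strand: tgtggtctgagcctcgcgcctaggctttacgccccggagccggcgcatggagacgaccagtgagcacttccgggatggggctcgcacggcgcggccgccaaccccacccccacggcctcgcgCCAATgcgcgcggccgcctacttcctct
Psmg3, chr5:139826895-139827044, minus strand: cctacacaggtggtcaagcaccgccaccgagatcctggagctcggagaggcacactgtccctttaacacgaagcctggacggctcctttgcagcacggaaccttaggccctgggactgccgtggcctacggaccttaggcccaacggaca

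The motif in Psmb5 lies 47 to 39 bases before the start and that in Psmb6 lies 9 to 1 bases before it. The CCAAT letters in Psmc2 lie 28 to 24 bases before its start. Over windows from 250 bases before to 50 after the start, 45 windows were found for 41 of the 49 genes, against 32851 windows in the whole table, and both strands were searched. TGACNNNGC was in 6 of the 45 (13.3%) and in 12.4% of all windows. CCAAT was in 16 (35.6%) against 37.4% of all. The core of interferon-stimulated elements was in 5 (11.1%), at Psmb3, Psmd4, Psmd9, Psme1 and Psmg4, against 3.4% of all. GTAAACA, the core that forkhead factors such as Foxo3 bind, was in 0 of the 45 windows against 3.6% of all, which says only that these letters are not in these windows. None of the matches overlapped a match of another motif. The searched letters are short, so a match describes the sequence and names no factor at work.

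Averaged over the other factor, most proteasome genes differed little between genotypes or with the transgene. In each comparison, the log2 difference of a gene was taken from its brightest detected probe, over 42 genes after leaving out Psmc3ip, which encodes a meiotic recombination factor and no part of the proteasome. The median difference between null and heterozygous ovaries was 0.02 without the transgene and 0.03 with it, beside -0.01 over all 12173 genes in both cases. The median difference between Tg and NoTg ovaries was -0.01 in heterozygous and 0.03 in null ovaries, beside 0.02 over all genes in both. Averaged over transgene states, the 95% interval of the null minus heterozygous difference lay within 0.5 of 0 (log2) for 81.0% of the 42 genes and 75.8% of all genes. For the transgene difference averaged over genotypes, the shares were 88.1% and 85.2%. In the 4 comparisons of single groups the shares were lower, at 66.7% to 76.2% of the 42 genes and 49.2% to 60.6% of all genes. For the interaction they were 54.8% and 22.1%. Of the 71 proteasome probes, 39 had a mean log2 intensity of 10 or more, as did 3609 of all 22511 detected probes. Over all these probes, the median pooled SD within groups was 0.145 at that brightness and 0.203 below it. The part of brightness in the shares was not tested. The median size of the difference, ignoring its sign, was 0.12 for the genotype and 0.07 for the transgene, beside 0.14 and 0.09 over all genes. On single arrays, the median deviation of the 42 genes from their own means ran from -0.08 to 0.05, and the ranges of all 4 groups overlapped.

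**Figure D1:**
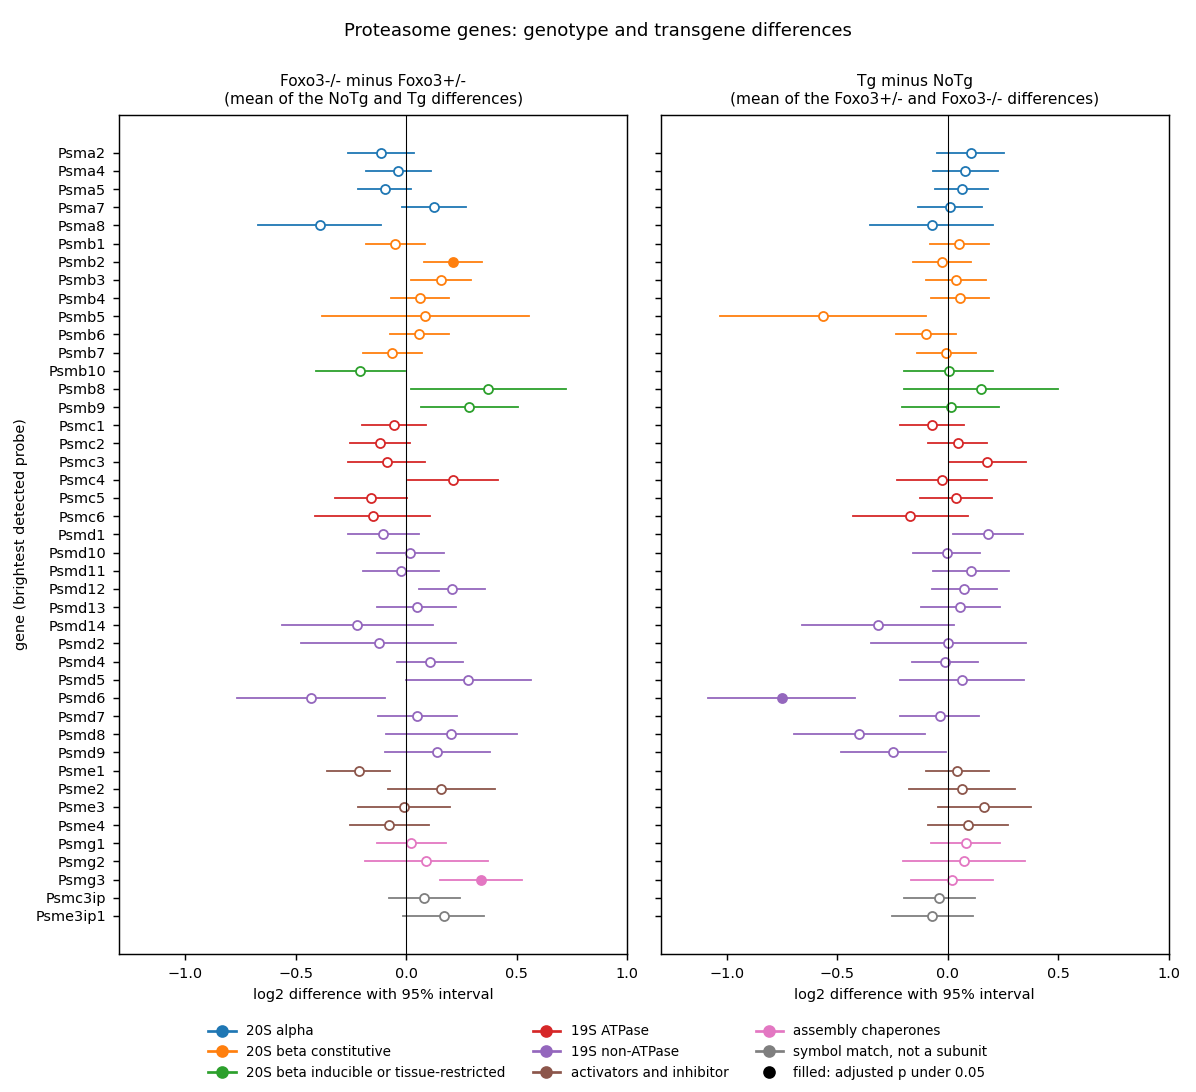
Log2 difference of each of 43 genes (brightest detected probe, in rows, coloured by class) with its 95% interval, for Foxo3-/- minus Foxo3+/- ovaries (left) and Tg minus NoTg ovaries (right), each averaged over the other factor. Most points lie close to 0, and filled points mark the 3 with an adjusted p under 0.05: Psmb2 and Psmg3 on the left and Psmd6 on the right.

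Calls were made per probe with limma at a Benjamini-Hochberg adjusted p under 0.05 over all 22511 probes. Between NoTg null and NoTg heterozygous ovaries, 0 of the 71 proteasome probes were called by limma, where 0.911% of all probes were. An unadjusted p under 0.05 was reached by 10 (3 higher, 7 lower), or 14.1%, beside 14.7% of all probes. Between Tg null and Tg heterozygous ovaries, 1 was called, lower, where 0.689% of all probes were called lower and 2.18% in either direction. For the transgene, limma called 0 in heterozygous ovaries (0.364% of all probes) and 0 in null ovaries (0.191% of all probes). There 11 and 10 proteasome probes had an unadjusted p under 0.05, or 15.5% and 14.1%, beside 9.96% and 10.5% of all probes. For the interaction, limma called 0 of the 71 and 0% of all probes, and 4 of the 71 (5.63%) had an unadjusted p under 0.05, beside 4.23% of all probes. Averaging over the other factor gives more precision. Null minus heterozygous then had 4 calls, or 5.63% of the 71, beside 8.34% of all probes. Of these, 3 were higher and 1 lower, where 4.13% and 4.22% of all probes were. Tg minus NoTg had 4 calls, all lower, again 5.63%, beside 2.94% of all probes called lower and 3.05% in either direction. These last 4 probes belong to 4 genes of the 19S particle, whose ATPase and non-ATPase classes hold 8 and 25 of the 71 probes. In 3 of these genes, Psmc2, Psmd11 and Psmd14, a brighter probe differed by 0.04, 0.11 and -0.32 and was not called.

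**Figure D2:**
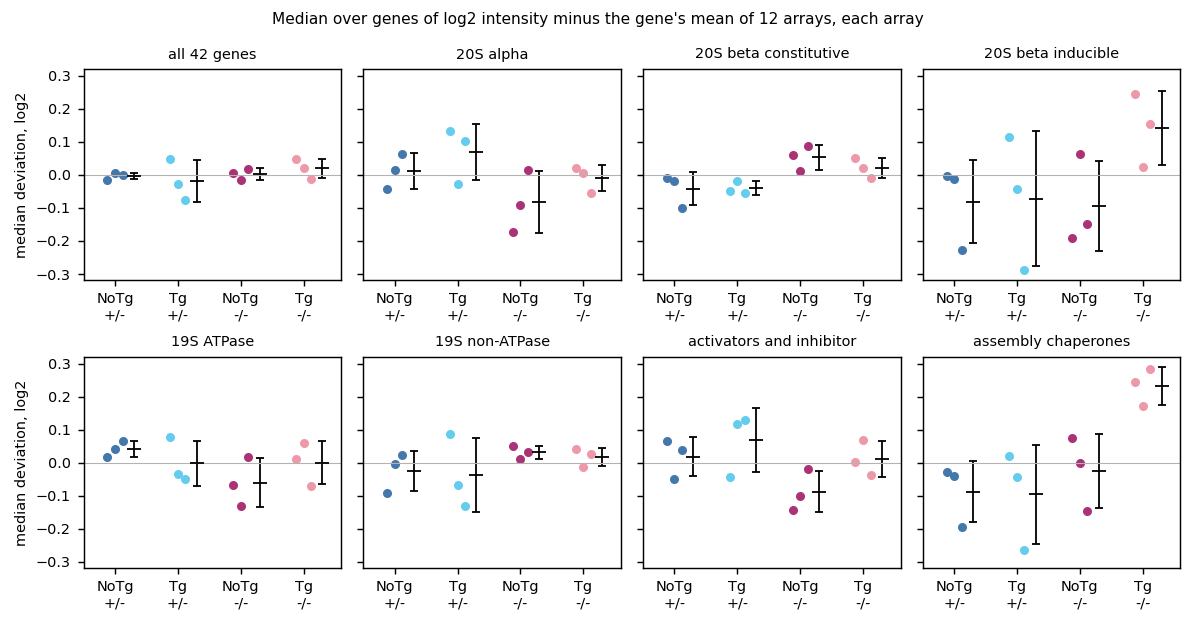
Median over the genes of a class of log2 intensity minus the gene's mean over 12 arrays, for each array (points) in each group, with the mean and SD of 3 arrays (bars). The 42 genes together stay within -0.08 to 0.05, while the inducible beta and chaperone classes, of 3 genes each, range more widely.

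The alpha subunits of the core were on the array as 8 genes, of which 5 were detected. Psma1, Psma3 and Psma6, which build the same ring, were detected on 0 arrays by any probe, so no level can be given for them. The median genotype difference of the 5, averaged over transgene states, was -0.10 and the median transgene difference was 0.06. None of their probes was called in any of the 7 comparisons. Psma2, the alpha subunit with the brightest probe, had log2 intensities of 13.60, 13.69 and 13.77 in NoTg Foxo3+/-, 13.82, 13.63 and 13.76 in Tg Foxo3+/-, 13.48, 13.35 and 13.72 in NoTg Foxo3-/-, and 13.67, 13.72 and 13.63 in Tg Foxo3-/-. The lowest arrays, at 13.35 and 13.48, were NoTg null, and the ranges of all 4 groups overlapped. The null minus heterozygous difference without the transgene was -0.17 ± 0.10 (SE, n = 3 arrays a group), with an adjusted p of 0.458 from limma.

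Psma8 encodes the alpha subunit of the testis proteasome, known in mice for its role in male meiosis in place of Psma7. Its brighter probe had log2 intensities of 5.93, 5.99 and 6.11 in NoTg Foxo3+/-, 5.65, 6.01 and 6.14 in Tg Foxo3+/-, 5.47, 5.66 and 5.71 in NoTg Foxo3-/-, and 5.79, 5.70 and 5.14 in Tg Foxo3-/-. Null arrays were mostly below the heterozygous ones, with overlap. The averaged difference was -0.39 ± 0.13 (SE), or a 1.31-fold ratio, and limma did not call it (adjusted p = 0.0767). A dimmer probe was detected on 8 arrays, only 1 of them Tg null. Its fitted difference between null and heterozygous ovaries with the transgene was -0.65 ± 0.19 (SE; adjusted p = 0.0814, limma), whose size is uncertain because most of the Tg null values were not above background. The other alpha genes, Psma4, Psma5 and Psma7, had averaged genotype differences between -0.10 and 0.13 and averaged transgene differences between 0.01 and 0.08.

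All 7 constitutive beta genes were detected, through 12 probes. Their median genotype difference was 0.06 and their median transgene difference -0.01, both averaged. Psmb2 encodes a non-catalytic beta subunit and was the core gene called for the genotype. Its brighter probe had log2 intensities of 12.28, 12.23 and 12.09 in NoTg Foxo3+/-, 12.14, 12.22 and 12.15 in Tg Foxo3+/-, 12.35, 12.48 and 12.40 in NoTg Foxo3-/-, and 12.42, 12.35 and 12.39 in Tg Foxo3-/-. Every null array lay above every heterozygous array, with or without the transgene. The averaged difference was 0.21 ± 0.06 (SE), a 1.16-fold higher level (adjusted p = 0.0449, limma), and it was 0.21 in each transgene state. Its other probe read 11.91, 11.90 and 11.68 in NoTg Foxo3+/-, 11.81, 11.76 and 11.80 in Tg Foxo3+/-, 11.93, 12.04 and 12.15 in NoTg Foxo3-/-, and 12.24, 12.01 and 12.14 in Tg Foxo3-/-. On that probe too all 6 null arrays exceeded all 6 heterozygous arrays, by 0.28 ± 0.07 (SE) or 1.21-fold (adjusted p = 0.0244, limma). The call rested on a narrow margin: the brighter probe missed the threshold in 16 of 22 alternative analyses and the other in 9 of 21, and the adjusted p was 0.195 and 0.112 under median scaling. With the replicate number as a block the adjusted p was 0.0567 and 0.0324.

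Markers of several cell types differed by genotype too. The summed intensity of the oocyte markers was 67010 to 72140 in NoTg heterozygous, 60920 to 67630 in Tg heterozygous, 81420 to 89800 in NoTg null and 81600 to 86040 in Tg null ovaries. Of the 11 oocyte markers, Zp1, Zp3, Gdf9 and Nlrp5 were called higher in null ovaries on average, where 4.13% of all probes were, and 2 of the 11 had differences below 0. In the same comparison 4.22% of all probes were called lower, and so were Krt8, Krt18 and Lgr5 of 7 surface epithelium markers and Cyp11a1, Pdgfra and Dcn of 6 theca and stroma markers. All 7 and all 6 of these had differences below 0. Amhr2 of 8 granulosa markers and Des of 3 muscle markers were called lower too. The granulosa list was mixed, with 5 differences below 0 and 3 above, while all 3 muscle markers were below 0. For the averaged transgene, Oosp1 of the oocyte markers was called lower (-0.30), where 2.94% of all probes were. Of the 11 oocyte markers, 9 then had differences below 0. Cyp11a1 of the theca and stroma markers was called higher (0.85), where 0.111% of all probes were, and 3 of the 6 were below 0. The part of these markers in the Psmb2, Psmg3 and Psmd14 differences, or in the calls for the transgene, was not tested.

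Psmb4, the beta subunit with the brightest probe, had log2 intensities of 13.25, 13.24 and 13.11 in NoTg Foxo3+/-, 13.36, 13.24 and 13.15 in Tg Foxo3+/-, 13.25, 13.27 and 13.26 in NoTg Foxo3-/-, and 13.39, 13.28 and 13.29 in Tg Foxo3-/-. Heterozygous and null arrays overlapped, at 13.11 to 13.36 and 13.25 to 13.39, and the averaged difference was 0.06 ± 0.06 (SE; adjusted p = 0.59, limma). Psmb1 and Psmb3, which are non-catalytic in the core, had averaged genotype differences of -0.05 and 0.16 and adjusted p-values of 0.69 and 0.145 from limma.

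The catalytic subunits come in pairs: Psmb5, Psmb6 and Psmb7 of the constitutive core are replaced by Psmb8, Psmb9 and Psmb10 in the immunoproteasome, which interferon induces and which leukocytes carry. Psmb5 encodes the chymotrypsin-like subunit and was measured by 1 probe. It read 9.48, 8.82 and 8.48 in NoTg Foxo3+/-, 9.01, 9.23 and 7.85 in Tg Foxo3+/-, 9.22, 9.70 and 9.13 in NoTg Foxo3-/-, and 8.91, 8.35 and 8.09 in Tg Foxo3-/-. The spread within groups was the widest of the 71 probes, with a pooled SD of 0.52. In null ovaries the 3 Tg arrays lay below the 3 NoTg arrays, by 0.90 ± 0.31 (SE), and limma did not call the difference (adjusted p = 0.275). With array background as a covariate the estimate turned to 0.77 (adjusted p = 0.99, limma). Background did not overlap between these groups, at 79.9 to 81.2 on NoTg null and 68.5 to 74.2 on Tg null arrays. That fit therefore cannot part background from transgene, and it does not settle the direction.

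Psmb6, the caspase-like subunit, read 12.20, 12.27 and 12.36 in NoTg Foxo3+/-, 12.06, 12.23 and 12.28 in Tg Foxo3+/-, 12.38, 12.32 and 12.35 in NoTg Foxo3-/-, and 12.26, 12.23 and 12.22 in Tg Foxo3-/- on its brighter probe. Psmb7, the trypsin-like subunit, read 12.20, 12.33 and 12.40 in NoTg Foxo3+/-, 12.21, 12.29 and 12.30 in Tg Foxo3+/-, 12.11, 12.26 and 12.26 in NoTg Foxo3-/-, and 12.22, 12.26 and 12.25 in Tg Foxo3-/- on its brightest. The NoTg null arrays of Psmb6 lay above the Tg null arrays, a difference of -0.11 that limma did not call (adjusted p = 0.737), while the 4 groups of Psmb7 overlapped. The averaged transgene differences of Psmb6 and Psmb7 were -0.10 ± 0.06 (SE) and -0.01 ± 0.06 (SE), with 95% intervals of -0.23 to 0.04 and -0.14 to 0.13.

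The inducible counterparts had a median genotype difference of 0.29, with both signs among the 3 genes, and none was called. Psmb8 read 7.69, 8.29 and 8.08 in NoTg Foxo3+/-, 8.42, 8.33 and 7.92 in Tg Foxo3+/-, 8.08, 9.10 and 8.16 in NoTg Foxo3-/-, and 8.55, 8.33 and 8.75 in Tg Foxo3-/-. Its averaged genotype difference was 0.37 ± 0.17 (SE; adjusted p = 0.183, limma), and 1 array of the NoTg null group, at 9.10, was the highest of all. A dimmer Psmb8 probe had an averaged genotype difference of 0.17. Without the transgene it gave 0.0004, beside 0.42 on the brighter probe. For the transgene in heterozygous ovaries the dimmer probe gave -0.12 and the brighter 0.20. Psmb9 read 8.07, 7.92 and 7.77 in NoTg Foxo3+/-, 8.03, 7.99 and 7.78 in Tg Foxo3+/-, 8.47, 8.13 and 8.02 in NoTg Foxo3-/-, and 8.36, 8.09 and 8.20 in Tg Foxo3-/-. Its averaged difference was 0.29 ± 0.10 (SE; adjusted p = 0.104, limma), with overlap between genotypes. Psmb10 read 9.51, 9.49 and 9.14 in NoTg Foxo3+/-, 9.41, 9.14 and 9.04 in Tg Foxo3+/-, 8.99, 9.002 and 8.97 in NoTg Foxo3-/-, and 9.09, 9.09 and 9.34 in Tg Foxo3-/-. Without the transgene its 3 null arrays lay below the 3 heterozygous ones, by 0.39 ± 0.13 (SE; adjusted p = 0.182, limma), and its second probe differed by -0.09. With the transgene the difference was -0.02. Psmb11, the beta subunit of the thymus, was not detected on any array.

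**Figure D3:**
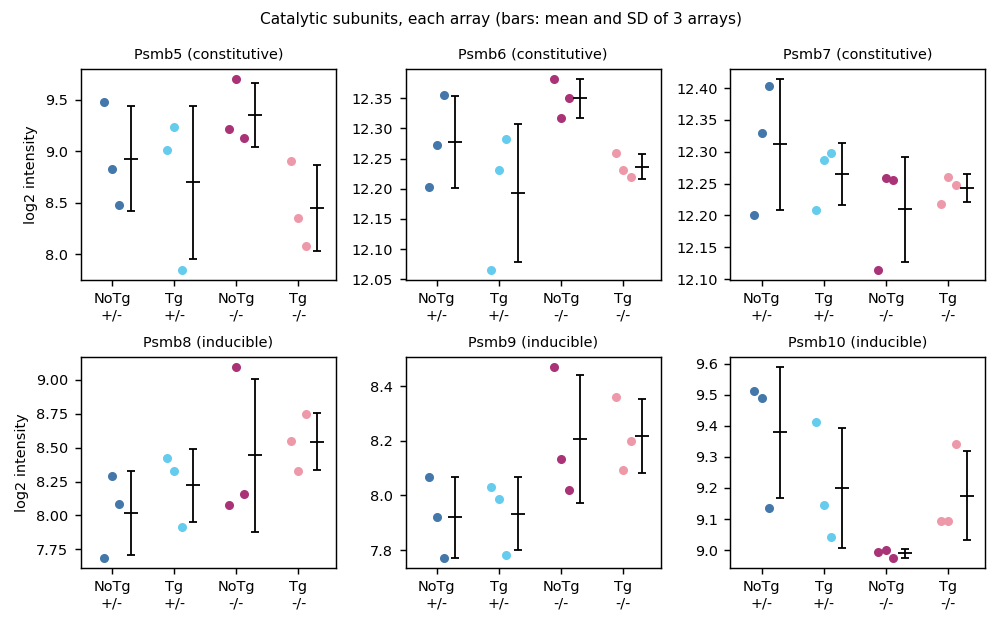
Log2 intensity of the brightest probe of the constitutive catalytic subunits Psmb5, Psmb6 and Psmb7 (top) and of their inducible counterparts Psmb8, Psmb9 and Psmb10 (bottom), for each array (points) in each group, with the mean and SD of 3 arrays (bars). Scales differ between panels: Psmb6 and Psmb7 vary by less than 0.4, while Psmb5 runs from 7.85 to 9.70.

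Of the leukocyte markers, 9 of 11 on the array were detected, 0 were called by limma in any comparison (at most 2 had an unadjusted p under 0.05 in a comparison), and Ptprc and H2-Aa were not detected. Their summed intensity ran from 469 to 1014 in NoTg heterozygous, 509 to 793 in Tg heterozygous, 451 to 880 in NoTg null and 496 to 524 in Tg null ovaries, and its part in the levels of Psmb8 to Psmb10 was not tested. Of a list of 12 antigen presentation and interferon genes, 10 were detected. For the genotype 8 of the 10 had differences above 0 (median 0.13) and 1 was called, lower, where 4.22% of all probes were. For the transgene 6 of the 10 were above 0 (median 0.04) and 1 was called, lower, where 2.94% of all probes were. H2-K1, an MHC class I heavy chain, read 8.04, 8.42 and 8.34 in NoTg Foxo3+/-, 7.95, 7.67 and 7.60 in Tg Foxo3+/-, 8.39, 8.45 and 8.08 in NoTg Foxo3-/-, and 8.08, 7.57 and 7.85 in Tg Foxo3-/-. Its transgene difference was -0.50 ± 0.12 (SE; adjusted p = 0.0245, limma). Irf8, an interferon-regulated factor of myeloid cells, was 0.46 ± 0.12 (SE) lower in null ovaries on the log2 scale (adjusted p = 0.0251, limma). Tap1, a peptide transporter whose gene neighbours Psmb9, had a transgene difference of 0.24 ± 0.11 (SE; adjusted p = 0.333, limma).

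All 6 ATPases of the 19S base were detected, through 8 probes. Their median genotype difference was -0.10 and their median transgene difference 0.01. Psmc2 was represented by a bright and a dim probe that gave different answers. The bright probe read 12.89, 12.87 and 12.84 in NoTg Foxo3+/-, 12.97, 13.05 and 12.77 in Tg Foxo3+/-, 12.70, 12.77 and 12.82 in NoTg Foxo3-/-, and 12.79, 12.78 and 12.81 in Tg Foxo3-/-. Tg and NoTg arrays overlapped, with a transgene difference of 0.04 ± 0.06 (SE; 95% interval -0.09 to 0.18). The dim probe read 7.01, 7.17 and 7.36 in NoTg Foxo3+/-, 6.50, 6.40 and 6.61 in Tg Foxo3+/-, 7.45, 7.33 and 7.29 in NoTg Foxo3-/-, and 6.92, 6.55 and 6.64 in Tg Foxo3-/-. On it all 6 Tg arrays lay below all 6 NoTg arrays, by 0.66 ± 0.11 (SE) or 1.59-fold (adjusted p = 0.00274, limma), with differences of -0.68 in heterozygous and -0.65 in null ovaries. The interval of the bright probe does not reach the value of the dim one.

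The other ATPases had averaged transgene differences between -0.17 (Psmc6) and 0.18 (Psmc3), and their averaged genotype differences ran from -0.16 (Psmc5) to 0.21 (Psmc4). The size of the Psmc6 differences is uncertain, because most values of its probe were not above background, and they enter the class medians. Apart from Psmc6, the lowest transgene difference was -0.07 (Psmc1). None of the other ATPases was called. The smallest adjusted p among them was 0.197, for Psmc4 by genotype. Psmc5 also had probes of opposite sign, -0.16 and 0.15 by genotype.

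The non-ATPase genes were on the array as 14 genes, and 13 were detected through 25 probes; Psmd3, a scaffold subunit of the lid, was detected on 0 arrays. Their median differences were 0.05 for the genotype and -0.01 for the transgene. Psmd4, the ubiquitin receptor and the member of this class with the brightest probe, read 13.19, 13.06 and 12.89 in NoTg Foxo3+/-, 13.15, 12.87 and 12.90 in Tg Foxo3+/-, 13.15, 13.08 and 13.07 in NoTg Foxo3-/-, and 13.18, 13.09 and 13.15 in Tg Foxo3-/-. Its groups overlapped, and its averaged differences were 0.11 and -0.01.

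Psmd14, the deubiquitinase of the lid, was called in both averaged comparisons by its dimmer probe. That probe read 8.84, 9.13 and 9.26 in NoTg Foxo3+/-, 8.67, 8.60 and 8.25 in Tg Foxo3+/-, 8.88, 8.71 and 8.70 in NoTg Foxo3-/-, and 8.17, 8.09 and 7.93 in Tg Foxo3-/-. Every Tg array lay below every NoTg array, though by little at the nearest values of 8.67 and 8.70. The transgene difference was -0.64 ± 0.10 (SE), 1.56-fold (adjusted p = 0.00274, limma), -0.57 in heterozygous and -0.70 in null ovaries. The genotype difference was -0.38 ± 0.10 (SE), 1.30-fold (adjusted p = 0.031, limma), with overlap between genotypes, and 12 of 21 alternative analyses lost that call. The brighter Psmd14 probe read 8.98, 9.25 and 10.25 in NoTg Foxo3+/-, 9.03, 9.31 and 9.09 in Tg Foxo3+/-, 9.26, 9.05 and 9.40 in NoTg Foxo3-/-, and 8.98, 9.10 and 8.78 in Tg Foxo3-/-. It had the same sign at -0.32 ± 0.16 (SE) for the transgene (adjusted p = 0.415, limma), and 1 NoTg heterozygous array, at 10.25, stood above all others.

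Psmd11 encodes a scaffold subunit of the lid. Its dimmer probe read 5.88, 6.28 and 6.22 in NoTg Foxo3+/-, 5.67, 4.94 and 5.31 in Tg Foxo3+/-, 6.37, 5.80 and 5.995 in NoTg Foxo3-/-, and 5.35, 5.15 and 5.51 in Tg Foxo3-/-. All 6 Tg arrays lay below all 6 NoTg arrays, by 0.77 ± 0.14 (SE) or 1.70-fold (adjusted p = 0.00629, limma). Its brighter probe read 8.60, 8.71 and 8.85 in NoTg Foxo3+/-, 8.97, 8.80 and 8.91 in Tg Foxo3+/-, 8.84, 8.75 and 8.71 in NoTg Foxo3-/-, and 8.76, 8.83 and 8.82 in Tg Foxo3-/-. There the difference was 0.11 ± 0.08 (SE), of the opposite sign, and Tg and NoTg arrays overlapped.

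Psmd6, another lid scaffold, was called on its brighter probe, which read 6.50, 6.56 and 7.46 in NoTg Foxo3+/-, 5.84, 6.09 and 6.07 in Tg Foxo3+/-, 6.28, 6.10 and 6.59 in NoTg Foxo3-/-, and 5.81, 5.69 and 5.46 in Tg Foxo3-/-. The Tg arrays lay below the NoTg arrays, the nearest values being 6.09 and 6.10. The difference was -0.75 ± 0.16 (SE), 1.68-fold (adjusted p = 0.0128, limma). The other probe was detected on 5 arrays, 1 of them Tg, so no difference is given for it. Without replicate 3 of Tg Foxo3-/- the adjusted p of the brighter probe was 0.0504. Psmd12, also of the lid scaffold, was not called: its dimmer probe differed by -0.60 ± 0.18 (SE; adjusted p = 0.0827, limma), with overlap between Tg and NoTg arrays, and its brighter probe by 0.07.

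**Figure D4:**
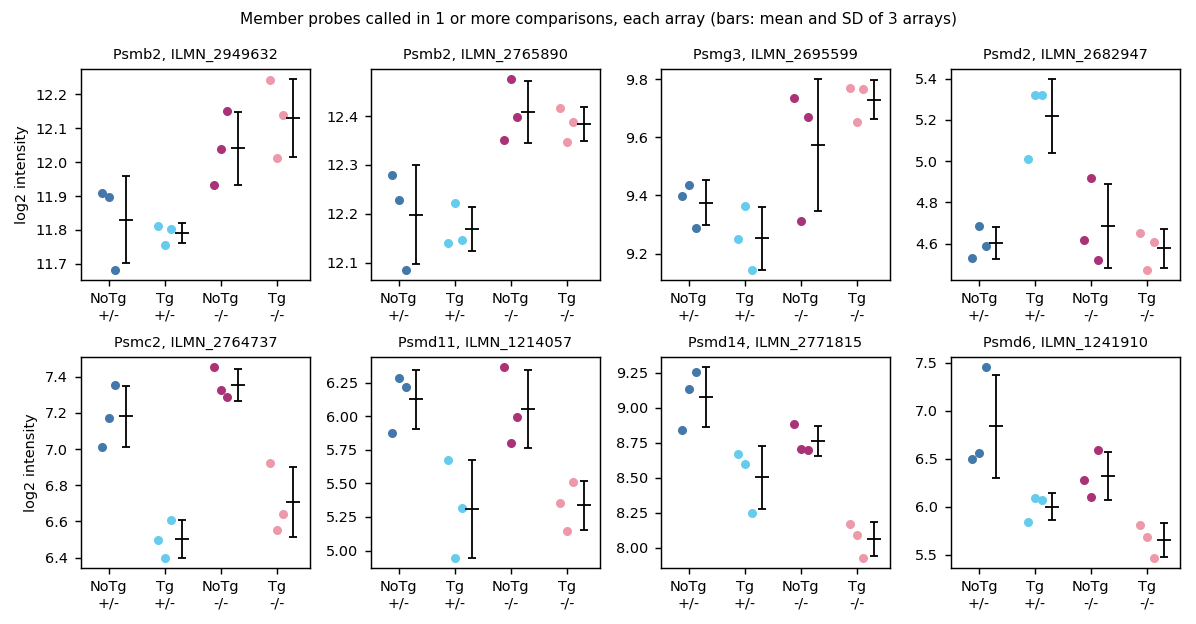
Log2 intensity of the 8 proteasome probes called in at least 1 comparison, for each array (points) in each group, with the mean and SD of 3 arrays (bars). Both Psmb2 probes and Psmg3 are higher in the null groups, and the dimmer probes of Psmc2, Psmd11 and Psmd14 and the brighter probe of Psmd6 are lower in the Tg groups.

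The calls for the transgene came from probes of low to middle brightness. Of the 39 proteasome probes with a mean log2 intensity of 10 or more, the transgene differences ran from -0.22 to 0.19. Of the 32 dimmer probes, 6 were below -0.5: the probes of Psmc2, Psmd11, Psmd12, Psmd14 and Psmd6 described above and that of Psmb5. Over the whole array, 0.748% of bright and 3.02% of dim probes were below -0.5. The median pooled SD within groups was 0.112 for the bright and 0.226 for the dim proteasome probes, beside 0.145 and 0.203 over all probes. Of 22 genes with at least 2 detected probes, 16 had transgene differences within 0.3 of each other. In 4 of the other 6, Psmc2, Psmd9, Psmd11 and Psmd12, the probes differed in sign as well; those of Psmd9, a base assembly chaperone, gave -0.25 and 0.39. Which transcripts each probe reads was not analysed here, and its part in these differences was not tested. With array background as a covariate, the differences of the 4 called probes ran from -0.98 to -0.48 and limma called none of them, nor any other probe on the array.

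**Figure D5:**
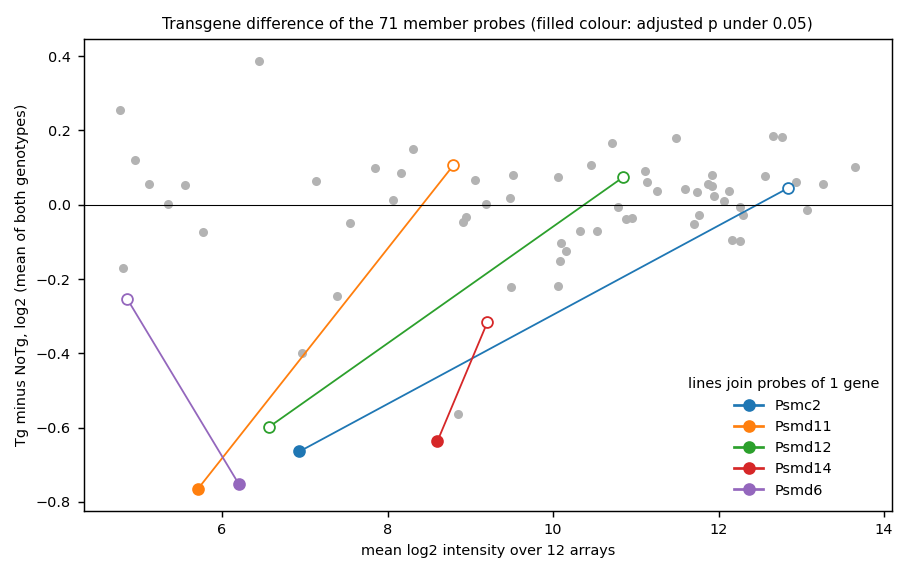
Transgene difference (Tg minus NoTg, log2, averaged over genotypes) against mean log2 intensity for the 71 proteasome probes, with lines joining the probes of Psmc2, Psmd6, Psmd11, Psmd12 and Psmd14. Filled colours mark the 4 called probes, all at a mean below 10, while the brighter probes of Psmc2, Psmd11 and Psmd12 lie near 0.

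Psmd2, a scaffold of the 19S base, had the probe called between Tg null and Tg heterozygous ovaries. This dimmer probe read 4.53, 4.68 and 4.59 in NoTg Foxo3+/-, 5.01, 5.32 and 5.32 in Tg Foxo3+/-, 4.62, 4.92 and 4.52 in NoTg Foxo3-/-, and 4.65, 4.47 and 4.61 in Tg Foxo3-/-. It was detected on all 3 Tg heterozygous arrays, on 1 NoTg null array and on 0 arrays of the other pair of groups. It thus entered the test only through the group in which it was high, and the call is no support for a change in Psmd2. Because it was not above background in Tg null ovaries, only a bound on the measured ratio can be given. With measured means of 5.22 in Tg heterozygous and 4.58 in Tg null ovaries, it was 1.29-fold or more (adjusted p = 0.0339, limma). That bound takes no account of the spread of the arrays or of how the probe entered the test. The adjusted p was 0.101 to 0.123 when any of 5 of the 6 arrays of these groups was left out. The brighter Psmd2 probe differed by -0.32 ± 0.23 (SE; adjusted p = 0.545, limma).

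The remaining Psmd genes passed no test. Psmd1, the large base scaffold, differed by 0.18 for the transgene on its brightest probe and 0.19 on the next. By genotype its 3 probes ran from -0.32 to -0.03. Psmd8, of the lid, had a transgene difference of -0.40 (adjusted p = 0.17, limma), and Psmd5, a base assembly chaperone, a genotype difference of 0.28 (adjusted p = 0.21, limma). Psmd7, the inactive partner of Psmd14, Psmd10, a base assembly chaperone, and Psmd13, of the lid, had brightest probes between -0.04 and 0.06 in both averaged comparisons. Over all its probes, Psmd10 ran from -0.01 to 0.23 by genotype and from -0.22 to -0.01 for the transgene. Those of Psmd7 ran from -0.05 to 0.14 and from -0.13 to 0.10.

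The 4 activator genes were all detected, with median differences of -0.04 for the genotype and 0.08 for the transgene. Psme1 encodes the alpha chain of the 11S activator, and its brightest probe read 11.63, 11.57 and 11.84 in NoTg Foxo3+/-, 11.68, 11.76 and 11.74 in Tg Foxo3+/-, 11.45, 11.44 and 11.51 in NoTg Foxo3-/-, and 11.45, 11.54 and 11.54 in Tg Foxo3-/-. All 6 null arrays lay below all 6 heterozygous arrays, by 0.21 ± 0.07 (SE), but limma did not call it (adjusted p = 0.0581; 0.0459 with 1 probe per gene tested), and its second probe differed by -0.04. Psme2, the beta chain, differed by 0.16. Psme3, the nuclear activator, had its widest difference for the transgene in null ovaries, 0.38 ± 0.14 (SE; adjusted p = 0.306, limma). Psme4, the activator known in mice for histone degradation in spermatids, differed by -0.08 and 0.09 in the averaged comparisons. Psme3ip1, a binding partner of Psme3 that the symbol rule takes in, differed by 0.17 and -0.07.

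Of the assembly chaperones, Psmg1, Psmg2 and Psmg3 were detected and Psmg4 was not. Psmg3 was called for the genotype and read 9.40, 9.44 and 9.29 in NoTg Foxo3+/-, 9.25, 9.36 and 9.14 in Tg Foxo3+/-, 9.74, 9.31 and 9.67 in NoTg Foxo3-/-, and 9.77, 9.65 and 9.77 in Tg Foxo3-/-. The heterozygous arrays lay at 9.14 to 9.44 and the null arrays at 9.31 to 9.77, so 1 null array fell among them. The averaged difference was 0.34 ± 0.09 (SE), 1.26-fold (adjusted p = 0.0254, limma), with 0.20 without the transgene and 0.48 with it, and the difference between these was not called (adjusted p = 0.994, limma). The call was lost in 8 of 22 alternative analyses. Psmg2, the partner of Psmg1, read 10.36, 10.21 and 9.52 in NoTg Foxo3+/-, 10.08, 10.14 and 9.80 in Tg Foxo3+/-, 10.14, 10.11 and 9.83 in NoTg Foxo3-/-, and 10.31, 9.92 and 10.35 in Tg Foxo3-/- on its brightest probe. Its groups overlapped, with a difference of 0.18 ± 0.19 (SE) between Tg null and Tg heterozygous ovaries (adjusted p = 0.675, limma). Psmg1 differed by 0.02 and 0.08. The class median of the 3 genes, each by its brightest probe, was 0.17 to 0.28 above the mean on the 3 Tg null arrays and -0.26 to 0.07 on the other 9. How often other sets of 3 genes part in this way was not examined. Over the 3 detected probes of Psmg2, the transgene difference in null ovaries ran from -0.21 to 0.16, and the brightest probe gave the highest value. Between Tg null and Tg heterozygous ovaries these probes ran from -0.13 to 0.18.

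Psmc3ip, the meiotic recombination factor Hop2 that works with Mnd1, read 10.91, 11.02 and 10.96 in NoTg Foxo3+/-, 10.67, 10.77 and 10.71 in Tg Foxo3+/-, 11.03, 10.67 and 10.82 in NoTg Foxo3-/-, and 11.10, 10.89 and 11.03 in Tg Foxo3-/-. Its lowest group was Tg heterozygous, apart from 1 NoTg null array. The interaction estimate was 0.42 ± 0.15 (SE) and was not called (adjusted p = 0.994, limma).

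Of 36 symbols for ubiquitin and proteasome partners that are not Psm genes, 22 were on the array under that name and 19 were detected. In the averaged genotype comparison 1 of the 19 was called, lower, where 4.22% of all probes were, and in the other 6 comparisons limma called 0, with 1 to 5 under an unadjusted p of 0.05. Uchl5, a deubiquitinase that sits on the 19S particle, read 10.05, 10.08 and 10.32 in NoTg Foxo3+/-, 10.02, 9.99 and 10.06 in Tg Foxo3+/-, 9.62, 9.63 and 9.88 in NoTg Foxo3-/-, and 9.66, 9.86 and 9.66 in Tg Foxo3-/-. Every null array lay below every heterozygous array, by 0.37 ± 0.08 (SE; adjusted p = 0.0114, limma). Usp14, the other ubiquitin protease bound to the 19S particle, read 6.88, 6.92 and 7.73 in NoTg Foxo3+/-, 6.46, 6.80 and 6.78 in Tg Foxo3+/-, 6.81, 6.77 and 6.98 in NoTg Foxo3-/-, and 6.33, 6.47 and 6.07 in Tg Foxo3-/-. Its transgene difference was -0.53 ± 0.15 (SE; adjusted p = 0.0607, limma). Ube3a, a ubiquitin ligase, and Ecpas, a proteasome adaptor, had transgene differences of -0.50 and -0.35 with adjusted p-values of 0.0808 and 0.081 from limma. Ubqln1, a shuttle for ubiquitinated proteins, differed by -0.22 for the genotype (adjusted p = 0.0723, limma). The chaperone Pomp, which completes the core, differed by -0.02 and -0.03, and Nfe2l1, the factor that raises proteasome genes when proteasomes fail, by -0.04 and 0.02, for genotype and transgene respectively. The median of the 19 was -0.04 for the genotype and -0.03 for the transgene.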

How the data were processed

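Total RNA of 12 ovary samples was labelled with biotin and hybridised to Illumina bead arrays, per the labels' protocols. The authors deposited a non-normalized table with the intensity of each probe and a detection p-value per array. They also deposited a second table of normalized values, made by a normalization that the labels do not state. For the alternative analysis, log2 was taken of the values in that second table. Symbols come from GEO's platform annotation, which names 1 gene for 34885 probes, several for 18 and none for 10378. From the deposited intensity, background was corrected with limma 3.58.1 in R 4.3.3 (normexp from detection p, offset 16), followed by quantile normalization and log2. The test covered the 22511 probes whose detection p was under 0.05 on 3 or more arrays. Group means were fitted with lmFit on all 12 arrays and tested with eBayes (intensity trend), two-sided, in 7 comparisons, with Benjamini-Hochberg adjustment over all probes. The fit was tested on simulated data.

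The brightest detected probe represents a gene. Values in every array are given for called members, for the brightest gene and the gene of smallest p in each class, for the catalytic pairs, Psma8 and Psmc3ip. Over 18 same-number pairs, the correlation of deviations from group means ran from -0.179 to 0.264. It exceeded 0.1 in every pair, at 0.172 to 0.195, between NoTg Foxo3+/- and NoTg Foxo3-/- arrays, where the blocked fit also made 0 calls, but not in every pair of any other 2 groups, so the number was not taken to pair samples across the 4 groups. Arrays correlated at 0.977 to 0.994, and no array was counted as a copy of another. Alternatives were 11 settings and 12 analyses with 1 array left out, and 1 list without Psme3ip1 chosen after seeing the data. The members and gene lists were chosen with earlier results of these data known. No batch is named in the labels. Genes with near-identical copies or pseudogenes may share a probe, which was not checked. The comparisons share samples, so they are not independent.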

Additional observations from a re-analysis of the deposited data

How the results depend on the processing

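Array weights raised the number of called proteasome probes to 1 between null and heterozygous ovaries without the transgene, 9 with it, 7 for the transgene in heterozygous and 3 in null ovaries, and 10 for the averaged genotype, 5 of them higher. With array background as a covariate, calls fell to 0 between null and heterozygous ovaries with the transgene, for the averaged genotype and for the averaged transgene. Median scaling left 0 with the transgene, 0 for the averaged genotype and 2 for the averaged transgene. The authors' normalized values gave 0 with the transgene, 2 for the averaged genotype, both higher, and 3 for the transgene in null ovaries. The stricter detection filter gave 0 with the transgene and 1 for the transgene in null ovaries. Fitting only the groups compared gave 2 with the transgene and changes nothing for the interaction and averages, which use all 4 groups. No filter and no intensity trend each gave 2 for the averaged genotype, and 1 probe per gene gave 1 for the averaged transgene. The counts in this section are given without the share of all probes called under the same setting. They therefore do not say whether proteasome probes moved apart from the rest of the array. The cause of these shifts was not tested.

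The median difference of the 42 genes depended on the scaling, which also changed the median of all probes: under median scaling it was 0.13 for the transgene in heterozygous ovaries and -0.17 for the interaction, and in the authors' values -0.10 for the transgene in null ovaries. The median of the 42 genes without the transgene was 0.0733 under median scaling and 0.128 in the authors' values, and with the transgene -0.0345 and -0.0144. For the transgene it was 0.135 and 0.042 in heterozygous ovaries, -0.0848 in null ovaries in the authors' values and 0.0657 there with the covariate. For the interaction it was -0.0902 and -0.133, and for the averaged transgene 0.0936 and -0.0195.

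Leaving out 1 array gave 0 to 2 calls between null and heterozygous ovaries with the transgene, 0 to 1 for the transgene in null ovaries, 0 to 6 for the averaged genotype, 3 to 5 for the averaged transgene and 0 to 0 in the other comparisons. The median then ran from -0.01 to 0.04 without the transgene, -0.0112 to 0.0678 with it, -0.0167 to 0.0355 and 0.0084 to 0.0283 for the transgene in heterozygous and null ovaries, and 0.00 to 0.03 for the interaction. It ran from 0.00 to 0.04 for the averaged genotype and 0.01 to 0.04 for the averaged transgene. The lowest count for the averaged genotype came without replicate 3 of NoTg Foxo3+/-, of NoTg Foxo3-/- or of Tg Foxo3-/-, or without replicate 1 of Tg Foxo3-/-, and the highest without replicate 1 of Tg Foxo3+/-.

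Differences that changed sign were those of Psmb4 (averaged genotype, -0.0127 with the covariate), Psmg2 (null against heterozygous with the transgene, -0.15 with the covariate), Psmb5 (transgene in null, 0.77 with the covariate) and Psmb7 (genotype without the transgene, 0.00799 in the authors' values). None of these was called in either analysis. With the replicate number as a block, calls were 3 for the averaged genotype, 4 for the averaged transgene and 1 between null and heterozygous ovaries with the transgene; the brighter Psmb2 probe then missed the threshold (adjusted p = 0.0567, limma). Probes near background are the least precise.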
